A study of Rattus norvegicus with 17 samples.

Results

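The genes described here are those for the protein components of the cytoplasmic ribosome of the rat, measured in laser-captured spinal cord neurons. A probe set (a group of short array probes read as 1 value) was taken as a member where its only gene symbol was Rpl or Rps with a number, Rplp0, Rplp1, Rplp2 or Rpsa. The rule found 48 of the 14218 genes with such a probe set, on 55 probe sets among the 31099 probe sets of the array, 20832 of which carried 1 symbol. Of the 48 genes, 33 belong to the large subunit and 15 to the small subunit. A further 36 probe sets list a ribosomal symbol beside other symbols, many of them for near-identical copies of the gene, and were kept apart. The mean over all 17 arrays was bright enough for a test in 49 member probe sets, which cover 43 genes.

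The study measured RNA from 1000 retrogradely labelled neurons per sample on a single-colour Affymetrix array. In 7 rats with cut axons (MOON265, MOON266, MM11, MM13, MM14, MM16 and MM17) neurons were captured as a Regenerating and a Non-regenerating sample from the same animal. Traced neurons, without axotomy, came from 3 further rats, MM15, MM18 and MM19, and MM15 is described as a high yield replicate. The design sets Regenerating against Non-regenerating neurons within animals to find genes tied to regeneration, and Non-regenerating against Traced neurons between animals to find genes tied to axotomy. Neither strain, age, sex, the lesion nor the time after it is given in the labels used here, and what the names MM and MOON stand for is not given either. No allele, transgene or drug is named, and every group shares retrograde labelling, 10 µm sections of unfixed cord and 3 rounds of linear RNA amplification.

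Ribosomes are built from ribosomal RNA and a fixed set of proteins, each of which is made in about the same amount. In mammals the mRNAs of nearly all of these proteins begin with an unbroken run of pyrimidines (C and T in the gene), the 5′ terminal oligopyrimidine tract, through which their translation is held under control of the mTOR kinase. Growing axons are known to contain ribosomes and ribosomal protein mRNAs, and protein synthesis in the cell body and in the axon is a long-studied part of axon regrowth. Many ribosomal protein genes have processed pseudogenes, so a probe set can also read a near copy.

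The starts of the genes on which the results turn are shown because the shared pyrimidine run lies there. They come from RefSeq on build GRCr8, where 43 of the 48 genes were matched by symbol, and each line runs 5′ to 3′ on the gene's strand over 40 bases before and 20 bases from the annotated start. Capitals mark the longest run of C and T between 15 bases before and 20 bases after that start, on the coding strand.
Rpsa, chr8:128728839-128728898, + strand: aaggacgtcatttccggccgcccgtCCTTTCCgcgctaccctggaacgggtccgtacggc
Rplp0, chr12:46718371-46718430, - strand: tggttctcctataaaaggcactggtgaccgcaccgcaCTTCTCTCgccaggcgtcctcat
Rps9, chr1:74430418-74430477, - strand: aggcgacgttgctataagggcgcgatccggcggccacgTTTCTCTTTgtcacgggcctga
Rpl22, chr5:168117921-168117980, + strand: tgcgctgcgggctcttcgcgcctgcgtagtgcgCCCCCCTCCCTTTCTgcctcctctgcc
Rpl5, chr14:1995206-1995265, - strand: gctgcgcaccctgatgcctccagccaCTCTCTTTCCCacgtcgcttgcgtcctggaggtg
Rpl39, chrX:121195877-121195936, - strand: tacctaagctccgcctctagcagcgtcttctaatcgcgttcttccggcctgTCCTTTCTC
Rps15, chr7:10068096-10068155, - strand: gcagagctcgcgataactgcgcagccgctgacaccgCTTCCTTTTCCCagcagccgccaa
Rps23, chr2:23814477-23814536, + strand: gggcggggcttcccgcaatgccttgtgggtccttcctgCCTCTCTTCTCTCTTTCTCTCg
Rps27l, chr8:76443618-76443677, + strand: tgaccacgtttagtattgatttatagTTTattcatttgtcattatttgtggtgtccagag
Rpl7l1, chr9:21695678-21695737, + strand: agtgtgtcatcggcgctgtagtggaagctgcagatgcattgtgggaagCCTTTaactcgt
The longest run measured 7 bases in Rpsa, 8 in Rplp0, 9 in Rps9, 15 in Rpl22, 11 in Rpl5, 9 in Rpl39, 12 in Rps15, 21 in Rps23, 3 in Rps27l and 5 in Rpl7l1. Runs were counted only within the searched stretch. That of Rpsa continues with a T before it, and that of Rpl39 ends at its last base, so both can be longer.

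Over the 43 matched members the median longest run was 9 bases, and 27 of them, 62.8%, held a run of at least 8 bases within the searched stretch. Among all 33469 RefSeq promoters searched in the same way the median was 5 bases and 13.2% held such a run. The 62 genes for mitochondrial ribosomal proteins, which serve the separate ribosome of the mitochondrion, had a median of 4 bases and a share of 14.5%. These are matches of letters near annotated starts, and they say nothing about which tracts are used in these neurons.

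On the arrays, the brightest probe sets of the 48 genes, 1 per gene, took between 0.358% and 0.902% of the summed signal without control probe sets. A pair of arrays stood apart from the rest before any comparison. Over the tested probe sets the median correlation with the other arrays was 0.847 for the Non-regenerating array of MM17 and 0.821 for the Traced array of MM15, against 0.905 or more for every other array. The ratio of the 3′ to the 5′ Gapdh control probe set, which rises where the amplified RNA is shortened, was 10.0 on the Non-regenerating MM17 array and 11.7 on the Traced MM15 array, against 20.7 to 150 elsewhere. On these 2 arrays the 3′ Gapdh signal itself was low, at 455.7 and 623.2, against 1362.4 or more elsewhere. Their 5′ signals, 45.5 and 53.1, lay within the 11.9 to 66.1 of all arrays. All 12 neuronal markers listed were tested. For example, Eno2, a neuronal enolase, had signals of 3078 to 13672, and Snap25, a synaptic vesicle fusion protein, 2850.1 to 11153.8. The summed signal of the 12 was 61180.3 on the Non-regenerating MM17 array and 60361.6 on the Traced MM15 array, against 19274.2 to 41174.3 on the others. Markers of glia were measured too, with Mbp of oligodendrocytes at 2802.5 to 5386.1 and Gja1 of astrocytes at 2878.8 to 6227.3. Fewer neurons in a sample and less ribosomal mRNA per neuron cannot be told apart in such bulk samples. Of the 12 neuronal markers 9 were lower in Regenerating than in Traced neurons, and without the 2 arrays that stood apart 4 were.

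In Regenerating against Non-regenerating neurons of the same animals, most ribosomal protein genes had a slightly higher signal in the Regenerating sample, and none passed the test. By the brightest probe set of each gene, 34 of 43 genes had a higher mean log2 signal in Regenerating neurons, and the median log2 fold change was 0.13. Over all 18625 probe sets tested, the median was -0.001 and 49.8% were higher in Regenerating neurons. Among the 2100 probe sets with a mean at or above the members' median level, which leave out the dimmer range of the members, the median was -0.07 and 34% were higher. Without MM17, whose Non-regenerating array stands apart, the members' median was 0.08 with 31 of 43 genes higher, and with the 3′ to 5′ ratio as a covariate it was 0.04 with 25 of 43 higher, where the median of all tested probe sets was 0.03. By limma's test with the animal as a block and Benjamini-Hochberg adjustment over all 18625 probe sets, 0 of 49 member probe sets passed an adjusted p of 0.05, where 0.0161% of all probe sets did. At an unadjusted p under 0.05, 6 of 49 members were higher and 1 was lower, where 7.08% of all probe sets passed in either direction and 4.26% as higher. Medians were 0.16 for the 29 tested large-subunit genes and 0.10 for the 14 small-subunit genes. The 35 tested probe sets with several symbols had a median of 0.22, with 30 of 35 higher.

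**Figure D1:**
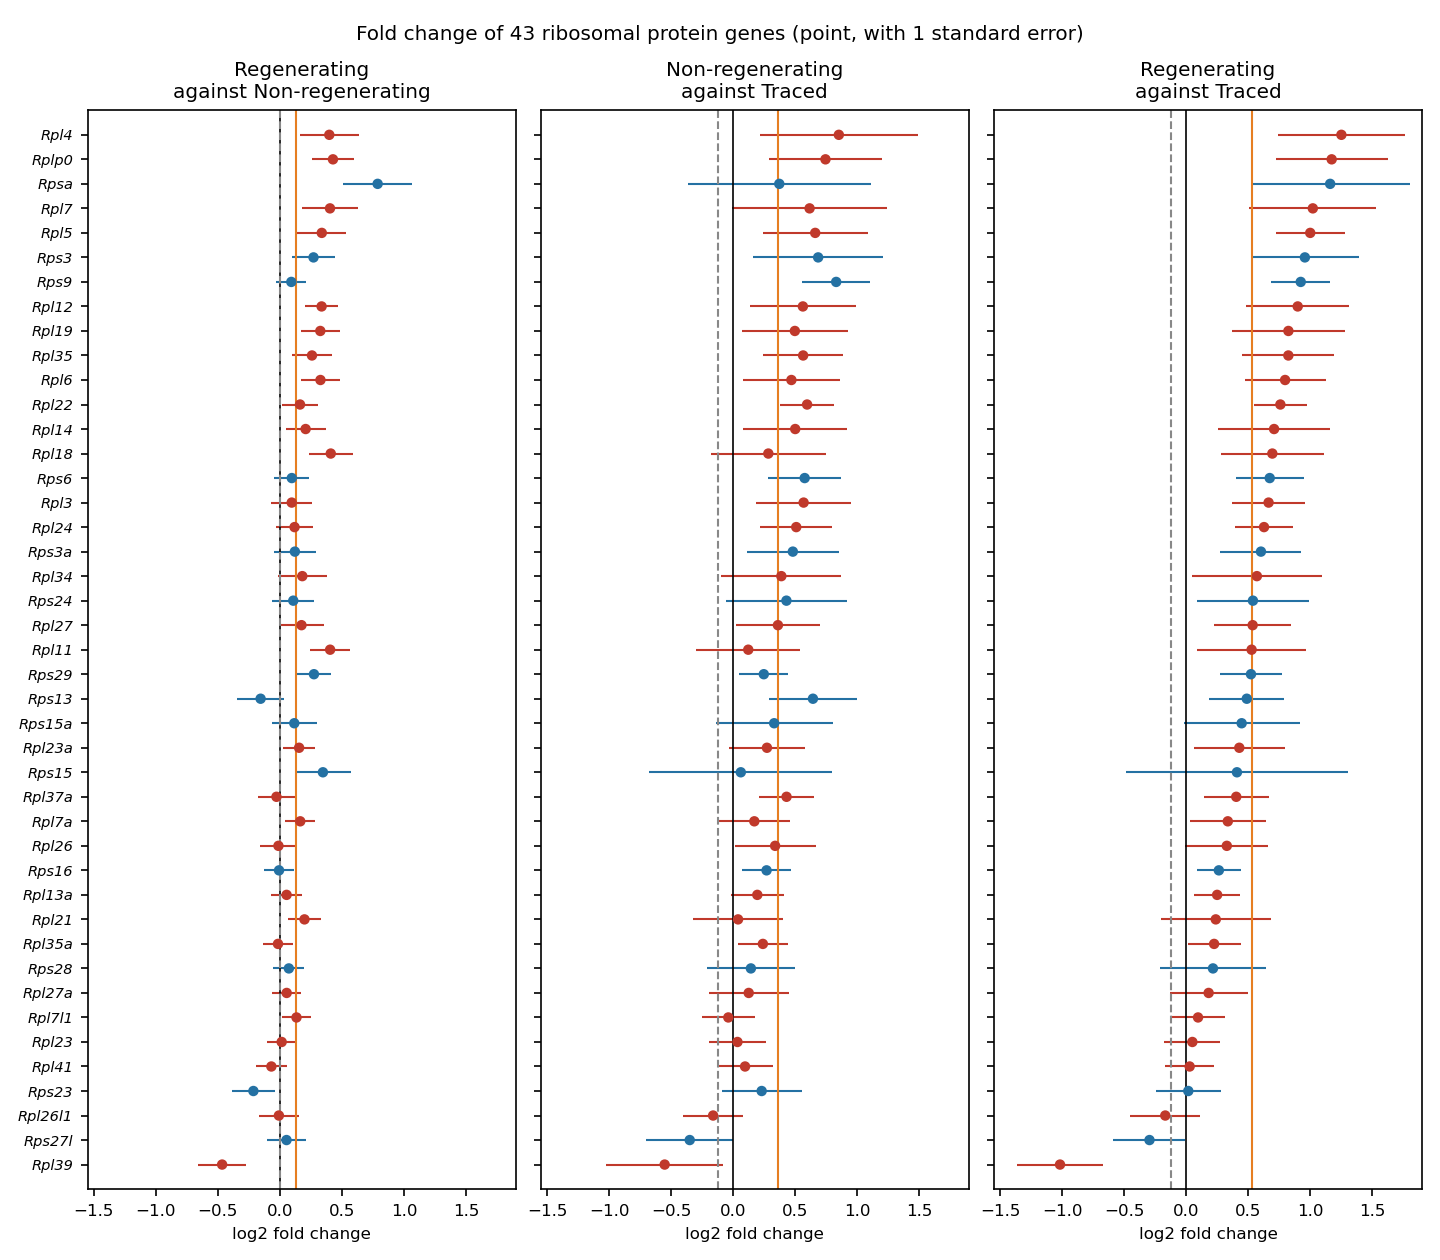
Log2 fold change of each of the 43 tested ribosomal protein genes (horizontal axis) in the 3 comparisons, with a line of 1 standard error on either side; red points are large-subunit and blue points small-subunit genes, in the same order in each panel. The orange line is the members' median (0.13, 0.36 and 0.53), the dashed line the median of all tested probe sets, and Rpl39 lies lowest in each panel.

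Rpsa, a small-subunit protein that also has a form known as the laminin receptor, had the smallest p of the members in this comparison. Its signals in Regenerating neurons had a lowest value of 132.0, a median of 641.4 and a highest value of 827.8, against 31.8, 318.9 and 762.2 in Non-regenerating neurons and 40.3, 361.9 and 336.7 in the Traced animals MM15, MM18 and MM19. All groups overlapped, and 5 of 7 animals had the higher value in the Regenerating sample. The means were 509 ± 287 in Regenerating and 321 ± 243 in Non-regenerating neurons (SD, n = 7 each), a log2 fold change of 0.79 with a standard error of 0.28 and an adjusted p of 0.678 by limma. Within MM17, Rpsa measured 349.7 in the Regenerating and 31.8 in the Non-regenerating sample. Without MM17 the log2 fold change was 0.43 (adjusted p 0.730). Another Rpsa probe set averaged 379 ± 115 in Regenerating and 289 ± 103 in Non-regenerating neurons, a log2 fold change of 0.39. The third Rpsa probe set had a log2 fold change of 0.30.

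Rplp0, the base of the stalk that binds the Rplp1 and Rplp2 proteins and receives the translation factors, was higher in the Regenerating sample of 6 of 7 animals. Its signals were 67.9 at the lowest, 183.2 at the median and 340.4 at the highest in Regenerating neurons, against 45.4, 96.9 and 302.1 in Non-regenerating neurons. The groups overlapped, and MOON265 was the animal with the higher value in Non-regenerating neurons. The log2 fold change was 0.43 with a standard error of 0.17 (limma, adjusted p 0.678). Rplp1 and Rplp2 had no probe set with a single symbol.

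Large-subunit proteins with a log2 fold change near that of Rplp0 included Rpl12, which sits at the base of the same stalk, at 0.34, Rpl18 at 0.41 and Rpl11 at 0.40. Without MM17 these were 0.29, 0.24 and 0.26. Rpl7 and Rpl4 were also near, at 0.40 each, but leaned on MM17. Rpl4 was at 0.07 without MM17, and the log2 difference of Rpl7 within MM17 was 2.22. Rpl11 averaged 733 ± 330 in Regenerating and 549 ± 294 in Non-regenerating neurons (SD, n = 7 each). It was higher in Regenerating neurons of 6 of 7 animals. Rpl5, which joins Rpl11 and the 5S ribosomal RNA in a particle that also binds the ubiquitin ligase Mdm2, had a log2 fold change of 0.34, and 0.09 without MM17. In all, 7 of 49 member probe sets were higher in 6 animals and 0 in all 7, where 7.39% of all probe sets were higher in at least 6.

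Rpl39, a small protein that lines the exit tunnel of the large subunit, lay in the other direction. It measured 48.1 at the lowest, 105.3 at the median and 162.6 at the highest in Regenerating neurons, against 79.3, 143.9 and 527.3 in Non-regenerating neurons. The groups overlapped, and in 6 of 7 animals the Non-regenerating sample was higher. The log2 fold change was -0.47 with a standard error of 0.20 (limma, adjusted p 0.681), and -0.27 without MM17, whose Non-regenerating array held the highest value of all 17.

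The direction within animals was not shared. In MM16 the Regenerating sample had the higher value for 40 of 43 genes (median log2 difference 0.36), and in MM13 for 35 (median 0.28). In MM17 it did so for 33 genes (median 0.61) and in MM14 for 26 (median 0.20). In MM11 only 15 of the 43 genes were higher, with a median of -0.11. In both MOON animals most genes were lower in Regenerating neurons, with 9 of 43 higher in MOON265 (median -0.13) and 12 of 43 higher in MOON266 (median -0.08). MM17, whose Non-regenerating array stands apart, had the widest spread, with an interquartile range of 0.12 to 1.28. With the MM animals alone the members' median was 0.22 and 39 of 43 genes were higher. A test of whether the difference itself depended on the name prefix called 0 of 49 members, with 6 of 49 at an unadjusted p under 0.05, where 5.11% of all probe sets passed.

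**Figure D2:**
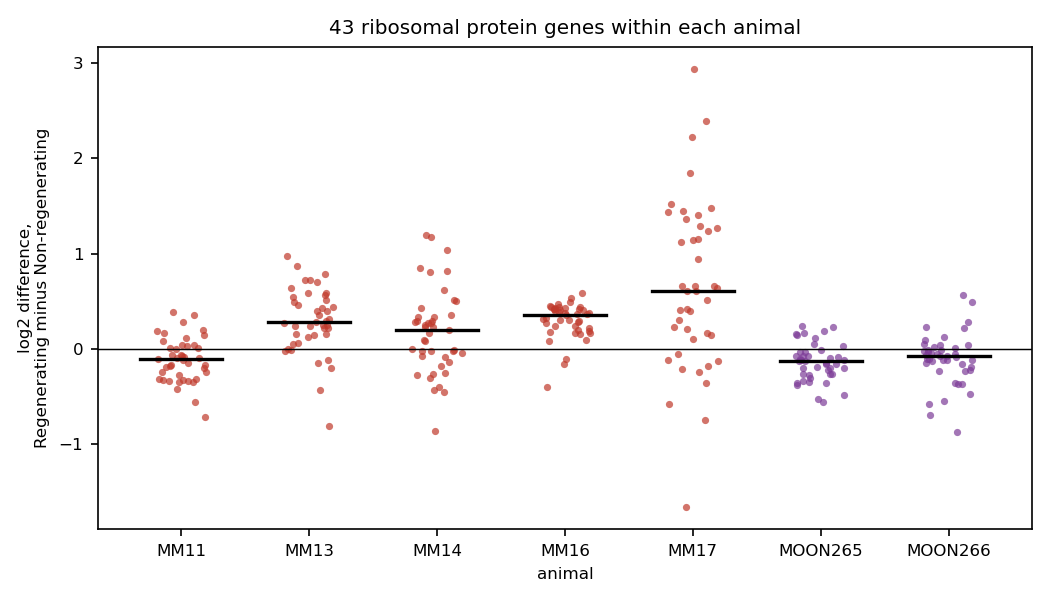
Log2 difference between the Regenerating and the Non-regenerating sample of each animal (vertical axis) for the 43 tested genes (points, spread sideways at random), with the median as a bar; MM animals are red and MOON animals purple. The medians lie above 0 in MM13, MM14, MM16 and MM17 and below 0 in MM11, MOON265 and MOON266, and MM17 has the widest spread.

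In Non-regenerating against Traced neurons the members were higher on the whole, again with no single gene past the test. Of 43 genes, 39 had a higher mean log2 signal in Non-regenerating neurons. The median log2 fold change of the members was 0.36, and that of all tested probe sets was -0.12 with 38.8% higher. Among the 2100 probe sets at or above the members' median level the median was 0.10, with 67% higher. By limma 0 of 49 member probe sets passed an adjusted p of 0.05, where 0.043% of all did. At an unadjusted p under 0.05, 2 were higher and 1 was lower, where 10.3% of all probe sets passed in either direction, 2.68% as higher and 7.61% as lower. In simulated data for this comparison, a gene changed 2-fold was recovered in 0% of cases and a gene changed 4-fold in 75%. The size depended on Traced MM15: without it the members' median was 0.08, with 25 of 43 genes higher. Without both arrays that stood apart, the median was 0.15, with 31 of 43 genes higher. All Traced animals are named MM, while 2 of the 7 Non-regenerating samples are from MOON animals, so the name prefix is not balanced here. With the MM animals alone, more of the 21 genes followed through the alternatives moved up than down. Rpl12 went from 0.56 to 0.92, while Rps9, among those that moved down, went from 0.83 to 0.72.

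Rps9, a protein near the entry of the mRNA on the small subunit, had the smallest p. It measured 670.0 at the lowest, 1089.3 at the median and 1307.4 at the highest in Non-regenerating neurons, against 372.6, 797.5 and 712.4 in the Traced animals MM15, MM18 and MM19. Non-regenerating MM17 lay below 2 of the Traced arrays, and all other Non-regenerating arrays lay above every Traced one. The means were 1097 ± 228 in Non-regenerating (SD, n = 7) and 628 ± 225 in Traced neurons (SD, n = 3), a log2 fold change of 0.83 with a standard error of 0.27 (limma, adjusted p 0.472). Without the 2 arrays that stood apart it was 0.61, with a standard error of 0.20.

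Rpl22, a large-subunit protein also known for binding small viral RNAs, did not overlap between the groups. Its signals ran from 2064.3 through a median of 2459.3 up to 3043.3 in Non-regenerating neurons, against 1324.0, 1782.3 and 1959.2 in Traced MM15, MM18 and MM19. The log2 fold change was 0.60 with a standard error of 0.22 (limma, adjusted p 0.472). Rps29 was the other gene with every Non-regenerating array above every Traced one, at 652.3 to 960.8 against 575.0 to 645.2, and 1.1% of all probe sets did likewise. Rps6, the small-subunit protein phosphorylated by the S6 kinases downstream of mTOR, averaged 1987 ± 552 in Non-regenerating and 1344 ± 465 in Traced neurons, a log2 fold change of 0.58 (limma, adjusted p 0.473) that was 0.36 without the 2 arrays that stood apart. Rpl37a, Rps13 and Rpl24 had log2 fold changes of 0.43, 0.64 and 0.51, none past the test, and without those arrays Rps13 was at 1.07.

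In Regenerating against Traced neurons, which share the Traced arrays with the comparison above, the members' median log2 fold change was 0.53 and 40 of 43 genes were higher. Over all tested probe sets the median was -0.12 with 40.8% higher, and over the 2100 at or above the members' median level it was 0.04 with 54% higher. By limma 0 of 49 members passed an adjusted p of 0.05, where 0.215% of all did. At an unadjusted p under 0.05, 13 were higher and 1 was lower, 14 of 49, where 23.6% of all probe sets passed in either direction, 5.98% as higher and 17.6% as lower. The MM animals alone, which hold all of the Traced animals, gave a median of 0.77, with 33 of 49 members higher at an unadjusted p under 0.05, where 11% of all probe sets were. In that fit 1 member, Rpl12, passed the adjusted test, at a log2 fold change of 1.34 (adjusted p 0.0440 by limma), where 0.376% of all probe sets did. Without Traced MM15 the median over all animals was 0.25, with 34 of 43 genes higher. With both steps together, an alternative chosen after the data were seen, the median was 0.51 and 42 of 43 genes were higher. In that fit 26 of 49 members were higher at an unadjusted p under 0.05, where 6.08% of all probe sets were, and 0 passed the adjusted test by limma, where 0.156% of all did. Over all animals, 5 other settings gave counts above 0: 2 members passed on centred arrays, where 1.88% of all probe sets did, 1 with an offset of 64 (4.68%), 3 with the name prefix as a term (1.08%), 1 without Regenerating MM17 (8.08%) and 15 with array weights (16.8%).

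**Figure D3:**
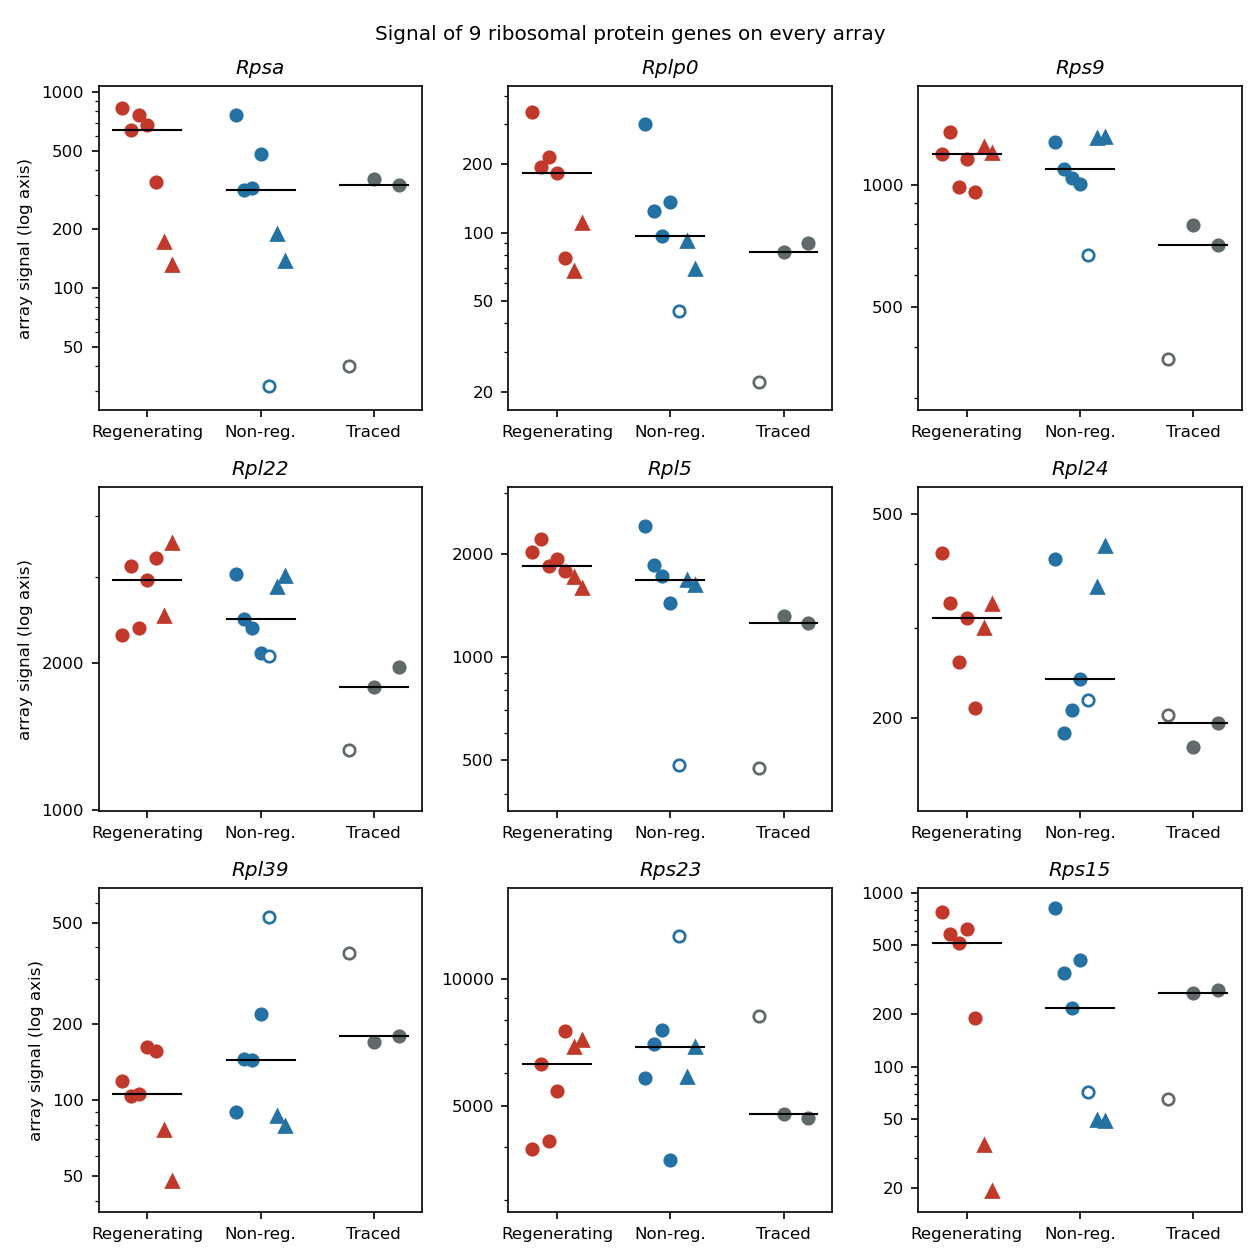
Array signal (log axis) of 9 ribosomal protein genes on each of 17 arrays, by group; circles are MM and triangles MOON animals, the bar is the group median, and open circles are the Non-regenerating MM17 and Traced MM15 arrays. Rpl22 and Rpl5 lie higher on every Regenerating array than on any Traced one, Rpl39 lies lower, and Rps15 is lowest in the MOON animals.

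Between Regenerating and Traced neurons 6 member probe sets lay higher on every Regenerating array, those of Rps9, Rpl5, Rpl22, Rpl24, Rps16 and a second one for Rpsa, where 2.35% of all probe sets did. Rps9 measured 960.0 at the lowest, 1190.3 at the median and 1341.4 at the highest in Regenerating neurons, all above the Traced values given before. Its log2 fold change was 0.92 with a standard error of 0.24 (limma, adjusted p 0.0684), the smallest p of the members. Rpl5 measured 1588.0 at the lowest, 1839.1 at the median and 2202.7 at the highest in Regenerating neurons, against 473.9, 1313.4 and 1252.5 in Traced MM15, MM18 and MM19. Every Regenerating array was above every Traced one, and the log2 fold change was 1.0 with a standard error of 0.28 (limma, adjusted p 0.0708). Without MM15 it was 0.53, and for Rps9 it was 0.59, each with an adjusted p of 0.388 by limma. Rpl22 averaged 2865 ± 489 in Regenerating and 1688 ± 328 in Traced neurons, a log2 fold change of 0.76 (limma, adjusted p 0.0710). Without MM15 the Rpl22 value was 0.59 (limma, adjusted p 0.388). Rpl24, which forms a bridge between the subunits, averaged 310 ± 66.4 in Regenerating and 192 ± 14.2 in Traced neurons (limma, adjusted p 0.128).

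Rpl39 was the member below: every Regenerating array, at 162.6 or less, was under every Traced one, at 379.2, 169.2 and 179.2 in MM15, MM18 and MM19. The log2 fold change was -1.02 with a standard error of 0.35 (limma, adjusted p 0.102), and -0.67 without MM15. Among all probe sets 9.36% lay below in this way. Rplp0 averaged 170 ± 95.3 in Regenerating and 65.0 ± 37.4 in Traced neurons, a log2 fold change of 1.17 that was 0.70 without MM15. Rpsa itself, by its brightest probe set, had a log2 fold change of 1.16 with all arrays and 0.26 without MM15. Rpl3, at the peptidyl transferase centre of the large subunit, averaged 2698 ± 484 in Regenerating and 1846 ± 866 in Traced neurons (log2 fold change 0.66), and Rps3, at the mRNA entry of the small subunit, 1444 ± 538 and 830 ± 498 (0.96). Without MM15 these log2 fold changes were 0.18 for Rpl3 and 0.28 for Rps3. The second Rpl3 probe set did not share the difference, at 260 ± 38.6 in Regenerating and 253 ± 25.1 in Traced neurons (0.03 with all arrays). Rpl13a, also known for a role outside the ribosome in silencing of inflammatory mRNAs, averaged 2281 ± 218 in Regenerating and 1923 ± 286 in Traced neurons (0.25). None of these passed the test.

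Markers of other cells differed in these contrasts. Of all tested probe sets, 40.8% were higher and 0.215% passed an adjusted p of 0.05 by limma in Regenerating against Traced neurons. These shares were 38.8% and 0.043% in Non-regenerating against Traced neurons, and 49.8% and 0.0161% in Regenerating against Non-regenerating neurons. Of 12 microglia and macrophage genes listed, 8 were tested and all 8 were higher in Regenerating than in Traced neurons, 2 of them past an adjusted p of 0.05, with a median log2 fold change of 1.52. In Non-regenerating against Traced neurons all 8 were higher as well, 1 past the test, with a median of 1.23, and between Regenerating and Non-regenerating neurons 6 of 8 were, with none past the test. Without the 2 arrays that stood apart all 8 were still higher against Traced neurons in both contrasts (medians 1.19 and 0.97), with 0 past the adjusted test by limma. Their summed signal was 3047.1 to 6018.5 in Regenerating, 3066.7 to 5454.6 in Non-regenerating and 1863.3 to 2085.9 in Traced samples. Of the 4 not tested, Itgam had a signal of at most 7.3 on any array. Of 8 astrocyte genes 7 were higher in Regenerating than in Traced neurons, 1 past the test (Gfap, log2 fold change 1.33, adjusted p 0.0260 by limma, and 0.157 without MM15), and 8 of 8 were higher in Non-regenerating than in Traced neurons. Both tested skeletal muscle genes were lower in Regenerating and in Non-regenerating than in Traced neurons (medians -1.30 and -1.15), with summed signals of the list of at most 269.1 in the axotomised samples and of 283.5, 765.4 and 260.0 in Traced MM15, MM18 and MM19. Of 5 endothelial genes 4 were lower in each of these 2 contrasts (medians -0.41 and -0.47). Between Regenerating and Non-regenerating neurons 5 of 6 motor neuron genes were higher, 1 past the test (Calca, log2 fold change 2.22, adjusted p 0.0314 by limma, and 0.108 without MM17), with a median of 1.02. The part of other cells and of neuron types in the ribosomal values was not tested.

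**Figure D4:**
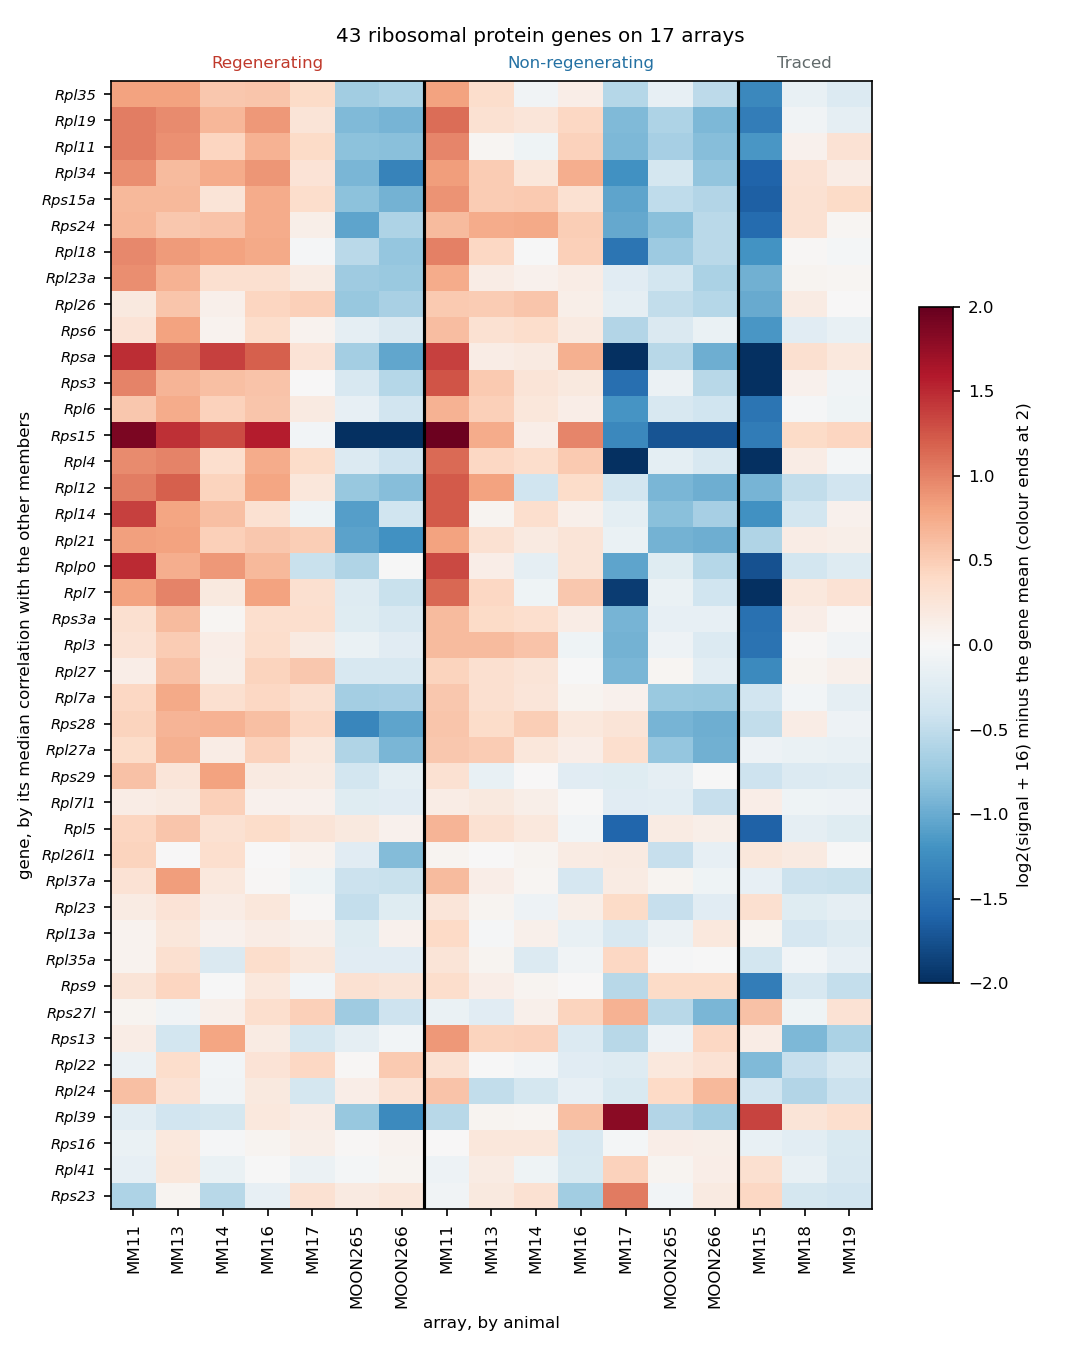
Log2(signal + 16) of the 43 tested genes minus each gene's mean (colour, red higher and blue lower) on the 17 arrays, in columns by group and animal; genes run down the page by their median correlation with the other members. The Non-regenerating MM17 and Traced MM15 columns and the MOON columns are blue for most genes, while Rps23, Rpl41, Rps16 and Rpl39 at the foot run apart.

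The ribosomal protein genes had a wide spread between arrays of a group. Their median within-group standard deviation was 0.56 on the log2 scale, against 0.46 for all tested probe sets and 0.38 for the 2100 at or above the members' median level. Correlations between members were taken across the 17 arrays on each gene's deviations from its group means. The median between pairs of members was 0.49 over 903 pairs, of which 178 were below 0. Pairs of other probe sets were not examined in this way. These correlations describe arrays that share animals, amplification and scaling. Rpl35 and Rpl19 were the most typical, with median correlations with the other members of 0.83 and 0.82. Rps23, a protein of the decoding centre, ran against the rest at -0.50, and so did Rpl41, a very short protein between the subunits, at -0.41.

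Wide ranges over the 17 arrays were those of Rps15, from 19.4 to 819.8, Rpsa, from 31.8 to 827.8, and Rplp0, from 22.1 to 340.4, whose lowest values are dim, so that no fold is given. Narrow ranges were those of Rps16 at 1.48-fold, Rpl13a at 1.67-fold, Rpl35a at 1.72-fold and Rpl41 at 1.73-fold. Each of these is a range of 1 probe set over the arrays, and the levels of different probe sets are not set against each other.

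The arrays that stood apart were low for some members and high for others. Traced MM15 held the lowest of the 17 values for 23 of the 43 genes, and 30 genes were lower there than on average in MM18 and MM19, with a median log2 difference of -0.99. In MM15 against the mean of MM18 and MM19, Rpl7 measured 156 against 1167 and Rpl4 86.2 against 677, but Rps23 8157 against 4751 and Rpl39 379 against 174. Non-regenerating MM17 held the highest value for 6 genes, among them Rps23 at 12608 and Rpl41 at 1863, and the lowest for 2. Probe sets of 1 gene could part on these arrays: in Non-regenerating MM17 the brighter Rpl3 probe set had the lowest of the 7 values, 1232.9, and the second one the highest, 423.4. The Gapdh ratios of both arrays were the lowest of all, while the actin 3′ to 5′ ratio was 17.9 on the Non-regenerating MM17 array and 11.4 on the Traced MM15 array, within the 7.41 to 51.8 of all arrays. With the mean log2 of both ratios as a covariate the members' median was 0.04 in Regenerating against Non-regenerating, 0.22 in Non-regenerating against Traced and 0.15 in Regenerating against Traced neurons.

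The animals named MOON differed from those named MM in the ribosomal genes, in a comparison added after the data were seen. On the mean of the 2 samples of each axotomised animal, 17 of 43 genes were lower in the 2 MOON than in the 5 MM animals past an adjusted p of 0.05 by limma, and 0 were higher. Over all probe sets 19.6% were lower and 7.06% higher. The median log2 difference was -0.68 for the members and -0.32 for all tested probe sets, and on arrays centred on their median it was -0.19 and 0.17, with 3 genes called. Rps15, whose C-terminal tail reaches the decoding site, averaged 38.2 in MOON and 454 in MM animals, a log2 difference of -2.90 with a standard error of 0.51. In the 2 MOON animals its 4 values were 35.4, 19.4, 49.2 and 48.7, while in the axotomised MM animals they ran from 71.8 to 819.8. Traced MM15, also named MM, measured 65.4. How many of all probe sets part the MOON from the MM arrays in this way was not counted. Rps28 averaged 529 in MOON and 1566 in MM animals, and Rpl21 255 and 768. Rps9, Rpl22, Rpl24 and Rps23 were not lower, with log2 differences of 0.25, 0.20, 0.37 and 0.15. With MOON265 left out 5 genes were called, with MOON266 left out 2, and with MM17 left out 31.

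Paralogs and dim members complete the set. Rps27l, the near copy of Rps27 that p53 is known to induce, had signals of 28.8 to 86.5 in Regenerating, 23.0 to 102.5 in Non-regenerating and 53.4 to 94.0 in Traced neurons, so all groups overlapped. Its log2 fold changes were 0.05 in Regenerating against Non-regenerating, -0.35 in Non-regenerating against Traced and -0.30 in Regenerating against Traced neurons, the last -0.14 without MM15. Rpl26l1, the close copy of Rpl26, averaged 103 ± 31.1 in Regenerating, 101 ± 17 in Non-regenerating and 114 ± 10.9 in Traced neurons. Rpl7l1, a factor in the assembly of the large subunit, had log2 fold changes of 0.13, -0.04 and 0.09 in the same comparisons. Its second probe set lay lower on every Non-regenerating array, at 107.0 to 239.1, than on any Traced one, at 247.9 to 283.3, where 1.47% of all probe sets did (log2 fold change -0.60; limma, adjusted p 0.472).

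Of the genes too dim to test, Rpl3l, the striated-muscle form of Rpl3, had signals of 1.9 to 3.4 in Regenerating neurons. It reached 27.8 on the Non-regenerating MM17 array and 8.8 on the Traced MM15 array, against at most 3.4 on the others. Rpl30, Rpl28, Rpl39l1 and Rps4y2 had highest signals of 24.9, 41.2, 53.4 and 28.5. Rpl30 and Rpl28 also stand on probe sets with several symbols, so a low signal here says little on those genes.

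Other genes of translation were set beside the members. In Regenerating against Non-regenerating neurons, 25 of 32 initiation factor genes were higher (median 0.19), 8 of 9 elongation factor genes (median 0.15) and 61 of 71 mitochondrial ribosomal protein genes (median 0.13), while 5 of 16 genes of mTOR and ribosome signalling (median -0.06) and 14 of 27 of ribosome biogenesis (median near 0) were, where 49.8% of all tested probe sets were higher. None passed an adjusted p of 0.05 by limma, and 5 of 32, 1 of 9, 7 of 71, 0 of 16 and 3 of 27 were higher at an unadjusted p under 0.05, where 4.26% of all probe sets were. Without MM17 the medians were 0.12 for initiation, 0.07 for elongation, 0.11 for mitochondrial ribosomal proteins, -0.02 for mTOR and ribosome signalling and 0.02 for biogenesis. Eif3b, a scaffold of the initiation factor eIF3, averaged 342 ± 172 in Regenerating and 220 ± 127 in Non-regenerating neurons (log2 fold change 0.61; limma, adjusted p 0.651). Eef2, the translocation factor, had a log2 fold change of 0.44 (0.29 without MM17), Eif6, which keeps free large subunits apart from small ones, 0.43, and Naca, which binds chains as they leave the ribosome, 0.45.

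**Figure D5:**
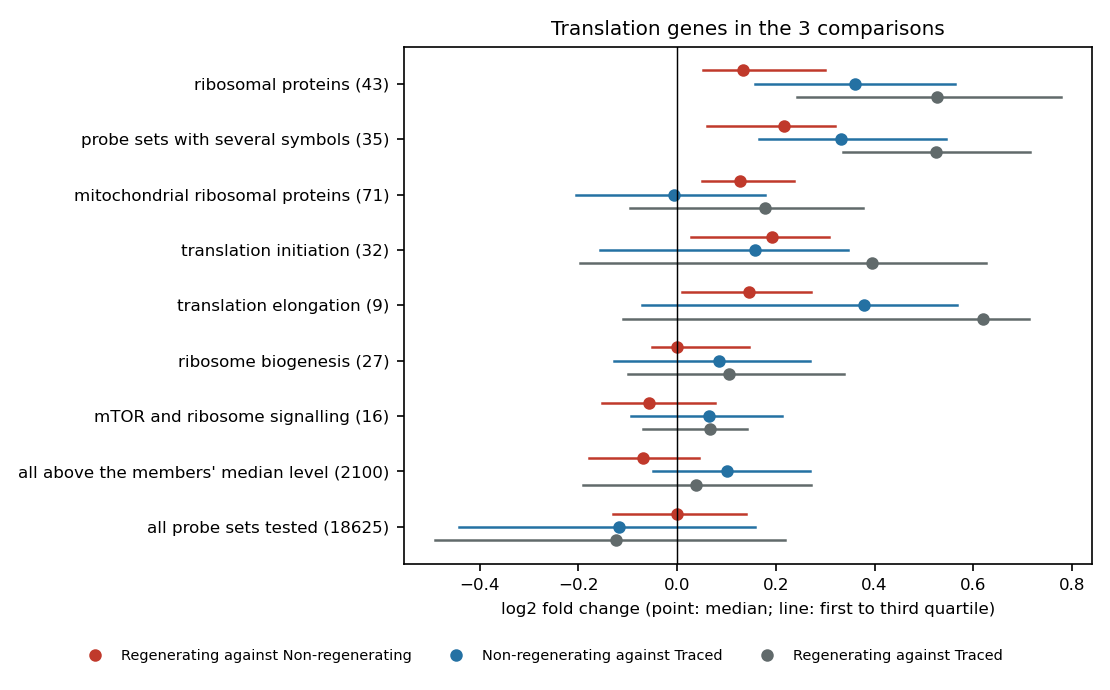
Median log2 fold change (point) with its quartile range (line) of each gene list, with the number tested in brackets, in Regenerating against Non-regenerating (red), Non-regenerating against Traced (blue) and Regenerating against Traced (grey). Medians of the ribosomal proteins are 0.13, 0.36 and 0.53, and those of all tested probe sets lie at or below 0.

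In Regenerating against Traced neurons the median was 0.62 for elongation factors and 0.39 for initiation factors, but 0.18 for mitochondrial ribosomal proteins, 0.11 for biogenesis and 0.07 for mTOR and ribosome signalling. Without MM15 these were 0.38, 0.13, -0.003, 0.05 and 0.02. In Non-regenerating against Traced neurons the medians were 0.38, 0.16, -0.01, 0.08 and 0.06 in the same order, and differences between lists were not tested. None of their members passed an adjusted p of 0.05 in either comparison by limma. At an unadjusted p under 0.05 in Regenerating against Traced neurons, 2 of 9 elongation and 10 of 32 initiation genes were higher. So were 4 of 71 mitochondrial, 3 of 27 biogenesis and 1 of 16 mTOR genes, where 5.98% of all probe sets were. Lower at that p were 0, 1, 3, 2 and 2 genes in the same order, where 17.6% of all probe sets were. Eef1a1, which brings aminoacyl-tRNA to the ribosome, averaged 4066 ± 798 in Regenerating and 2656 ± 655 in Traced neurons (log2 fold change 0.62, and 0.40 without MM15; limma, adjusted p 0.128), and 4073 ± 949 in Non-regenerating neurons. Eif3h, another eIF3 subunit, averaged 2758 ± 443 in Regenerating and 1777 ± 311 in Traced neurons (0.63; limma, adjusted p 0.0914). Eif4ebp1, the mTOR-controlled inhibitor of cap-dependent initiation, lay the other way, at 35.6 ± 30.3 in Regenerating and 112 ± 32.2 in Traced neurons (log2 fold change -1.45; limma, adjusted p 0.0699). Rack1, a small-subunit protein outside the naming rule, had log2 fold changes of 0.20 in Regenerating against Non-regenerating, 0.33 in Non-regenerating against Traced and 0.53 in Regenerating against Traced neurons. Without the 2 arrays that stood apart these were 0.07, -0.004 and 0.06.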

How the data were processed

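The deposited values are signal intensities of an Affymetrix rat array, 1 per probe set and sample, made by the authors with GCOS, per the submitters' processing notes. From the values, each array was scaled to a trimmed mean of 200.04 to 200.08 after trimming 2% at either end. The version of GCOS, the background step and the scan batches are not given in the sources used here, and array signals carry no read depth, so the number of arrays limits the precision.

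Signals were taken as log2(signal + 16), which shrinks fold changes of dim probe sets. The 57 control probe sets were left out, and a probe set was tested where its mean over all 17 arrays was above the 40th percentile, which left out 12417. Tests used limma 3.58.1 in R 4.3.3 (eBayes with a trend on mean level) with Benjamini-Hochberg adjustment over 18625 probe sets at 0.05. Regenerating against Non-regenerating neurons had the animal as a block, because the titles put both samples in the same rat. Their deviations from the group means correlated at 0.345 to 0.709 in the 7 animals. The Traced comparisons were between animals, on separate fits of the groups compared. The code was tested on simulated data with independent noise, in which 200 of 18625 probe sets were changed. Of those changed 2-fold, 74.5% were recovered between Regenerating and Non-regenerating neurons and 3.5% between Regenerating and Traced neurons. The members are correlated and spread more widely than all tested probe sets, so these shares need not hold for them.

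Gene symbols came from the platform annotation, where 436 probe sets list several symbols and 9831 none. A gene with several probe sets is given by its brightest. Genes named are a set chosen for their roles in the ribosome, with the 6 members of smallest p per comparison, the 6 brightest and 6 dimmest, and up to 3 genes of each other translation list by p. Rps15, Rps16, Rps28, Rps29, Rpl4, Rpl7, Rpl19, Rpl21, Rpl26l1, Rpl35, Rpl35a and Rpl41 were named after their values were seen. The members and lists were chosen with earlier results of these data known. Standard deviations describe the spread between the samples of a group. The p-values between Regenerating and Non-regenerating neurons rest on differences within animals, and those against Traced neurons on differences between animals. Alternatives tried were other scalings, offsets, filters, covariates, probe set choices and samples left out. Figures used Python 3.11.15 and matplotlib 3.10.9.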

Additional observations from a re-analysis of the deposited data

Results flagged for a closer look

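Among 42 groups of 7 arrays examined for 1 value far from the others, over the Regenerating and Non-regenerating arrays of 21 genes, 3 held such a value, and chance gives about 1 in 20. Rpl13a measured 1828.5 in Regenerating neurons of MOON265, where the other 6 Regenerating arrays ran from 2281.6 to 2529.4. Rpl5 measured 484.5 in Non-regenerating neurons of MM17, where the others ran from 1438.0 to 2403.5. Rps9 measured 670.0 on that same Non-regenerating MM17 array, where the others ran from 1004.0 to 1307.4.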

How the results depend on the processing

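No called result and no median over the members changed direction under the alternatives run, but single genes that were not called did: Rpsa in Non-regenerating against Traced neurons had a log2 fold change of 0.37 with all arrays and -0.13 without the 2 that stood apart. Without the replicate block on the animal, 0 members passed between Regenerating and Non-regenerating neurons, and members at an unadjusted p under 0.05 numbered 0, against 7 with it; the median, 0.13, cannot change in this balanced design. The members' median ran from 0.04 (3′ to 5′ ratio as a covariate) to 0.22 (MM animals alone) in that comparison, from 0.08 (without Traced MM15) to 0.72 (arrays centred on their median) in Non-regenerating against Traced neurons, and from 0.15 (covariate) to 0.92 (centred) in Regenerating against Traced neurons. Centring moved the median of all tested probe sets to 0.24 in Non-regenerating against Traced and 0.26 in Regenerating against Traced neurons. With array weights, 4 members passed in Non-regenerating against Traced and 15 in Regenerating against Traced neurons, where 13.1% and 16.8% of all probe sets did. In Regenerating against Traced neurons, 2 passed on centred arrays (1.88% of all probe sets), 1 with an offset of 64 (4.68%), 1 with the MM animals alone (0.376%), 3 with the name prefix as a term (1.08%), and 0 to 1 with 1 replicate left out (Rps9, without Regenerating MM17, where 8.08% passed). The 17 genes lower in MOON than in MM animals were 3 on centred arrays and 2 to 31 with 1 animal left out. The causes were not tested. The MM animals without the 2 arrays, and every MOON against MM setting, were chosen after seeing the data.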
